A study of Rattus norvegicus with 10 samples.

Results

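The genes described here are 9 transcription factors of the circadian clock's output and accessory loops: Nr1d1, Nr1d2, Dbp, Tef, Hlf, Nfil3, Bhlhe40, Bhlhe41 and Rora. They were measured in rat mammary tumours before and after oral hydroxytyrosol, a phenolic compound of olive oil. The members were chosen by name from known clock biology, with the final minus basal differences of these same arrays already known. Those differences are therefore given as a description, with no p-value for any of the 9. A gene entered through every array row, or probe set, to which the platform annotation gives exactly 1 symbol, and all 9 were found, among 14217 genes with such a row. They had 17 probe sets, of which 15 lay above a cutoff for dim signal (5.145 on the log2 scale, the lowest 40% of probe sets by mean). Each gene's brightest probe set stands for it below, and all 9 of these lay above the cutoff.

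The samples came from 5 tumours of female Sprague-Dawley rats. All rats had received 1 oral dose (100 mg/kg) of the carcinogen DMBA (7,12-dimethylbenz(a)anthracene), and all 5 tumours were of Bloom-Richardson grade II. The basal group is 5 Trucut needle biopsies, taken with no treatment at 12 weeks of age when the tumour had a volume of 2 cm3. The final group is 5 samples of the same tumours at sacrifice, at 19 weeks of age in week 7 after the biopsy, following 6 weeks of gavage with hydroxytyrosol (0.5 mg/kg, given 5 days weekly). The sample labels describe the final tissue as tumour at sacrifice, and the design text as a further Trucut sample. Tumours of the later age without hydroxytyrosol were not analysed here, so treatment, age, tumour growth and the way of sampling cannot be told apart. The sources used here do not state the hour of day at which tissue was taken, or whether the 5 tumours came from 5 rats. The errors below therefore speak for these tumours only. Each SE comes from the paired fit, which draws a gene's variance toward that of all tested probe sets. It can thus be smaller or larger than the gene's own 5 differences would give. The tissue is bulk tumour, where fewer cells of a type and less RNA per cell cannot be told apart.

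In the clock, the activators BMAL1 and CLOCK (or NPAS2) bind E-boxes and switch on their own repressors, the PER and CRY proteins. The same activators drive Nr1d1 and Nr1d2, which encode the nuclear receptors REV-ERB alpha and beta, and these repress Bmal1 through ROR response elements. Rora encodes RORα, an activator that binds the same elements. Dbp, Tef and Hlf encode the PAR bZIP activators, which bind D-boxes, and Nfil3 encodes E4BP4, a repressor that binds D-boxes. Bhlhe40 and Bhlhe41 encode DEC1 and DEC2, repressors that bind E-boxes and compete with the activators there.

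The E-box is the element that links most of these genes to the central loop, so the stretches that hold one are shown. RefSeq promoters on the rat build GRCr8, from 250 bases before to 50 bases after a transcript start, were matched for 8 of the 9 genes by symbol (Hlf was not matched), in 9 windows since Nr1d1 has 2 starts. The E-box letters CACGTG, which read the same on both strands, were found in 4 of the 9 windows, and 6.42% of the 33469 promoters of this length hold them. The related letters CACGTT, searched on both strands, were found in 1 of the 9 windows against 4.83% of all promoters. Each line gives 60 bases around the match, 5′ to 3′ on the gene's strand, with the matched letters in capitals. In Nr1d1 the match is in the window of the downstream start in the first line, and of the upstream start in the second line, where AACGTG is CACGTT on the other strand.

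Nr1d1 at chr10:84229613-84229672 on the minus strand, 191 bases before its start: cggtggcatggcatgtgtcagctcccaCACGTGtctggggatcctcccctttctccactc

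Nr1d1 at chr10:84231954-84232013 on the minus strand, 174 bases before its start: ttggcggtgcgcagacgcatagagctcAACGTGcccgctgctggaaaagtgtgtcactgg

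Tef at chr7:115206602-115206661 on the plus strand, 198 bases before its start: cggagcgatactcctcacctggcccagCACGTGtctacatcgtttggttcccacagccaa

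Bhlhe40 at chr4:143174203-143174262 on the plus strand, 220 bases before its start: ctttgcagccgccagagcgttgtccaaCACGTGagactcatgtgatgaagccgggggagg

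Bhlhe41 at chr4:180569371-180569430 on the minus strand, 48 bases before its start: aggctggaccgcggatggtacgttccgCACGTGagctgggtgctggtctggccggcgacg

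The promoter of Dbp, the factor with the lowest mean difference over the 5 tumours, is given whole. No searched motif was found in it, so it has no capitals. None was found either in the promoters of Nr1d2, Nfil3 and Rora, which are not shown. The Dbp promoter lies at chr1:105312006-105312305 on the plus strand.

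Dbp: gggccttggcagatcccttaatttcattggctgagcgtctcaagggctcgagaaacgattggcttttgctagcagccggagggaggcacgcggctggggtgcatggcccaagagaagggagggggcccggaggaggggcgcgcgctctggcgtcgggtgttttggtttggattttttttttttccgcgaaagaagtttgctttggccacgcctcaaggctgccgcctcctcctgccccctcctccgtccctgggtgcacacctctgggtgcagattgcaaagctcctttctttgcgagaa

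The D-box letters TTATGTAA (0.893% of all promoters) and TTACGTAA (0.12%) were found in 0 of the 9 windows, on either strand. The same was true of the ROR element letters ANTAGGTCA (0.657%) and ANTGGGTCA (0.804%), where N is any base, and of the cyclic AMP response element TGACGTCA (1.83%). These matches are a description of a short window, and such elements can lie outside it.

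The arrays were of like overall level, with medians over the 18625 tested probe sets between 7.67 and 7.80 on the log2 scale. The BioB spike-in, by which the study judged its sensitivity, had a mean signal of 7.97. The main probe sets of Nr1d1, Hlf, Nfil3 and Rora, 4 of the 9, had both group means below it, and for these 4 no ratio is given because the signal is dim. The hexokinase 3′ minus 5′ difference, which grows with RNA degradation, was 2.36 in the biopsy of 45D3 and 2.03 in that of 67D3, and from 0.89 to 1.29 in the other 8 arrays. As a check of the tissue, the luminal epithelial markers (Krt8, Krt18, Krt19, Epcam and others, 8 in all) had a median signal from 11.59 to 12.10 in every array.

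As a set, 7 of the 9 factors had a lower mean in final than in basal samples and 2 a higher one, with a median log2 difference of -0.26 against -0.00 over all tested probe sets. None was lower in all 5 tumours (4.75% of all tested probe sets) or higher in all 5 (3.96%). In 5 of the 9 the final signal was lower in at least 4 tumours (25.2% of all), and in 1, Rora, it was higher in at least 4 (21.3%). The groups overlapped for all 9, while 1.07% of all probe sets had every final value below every basal value and 0.172% had every final value above. With limma, a linear model with moderated variances, 0 of the 9 passed a Benjamini-Hochberg adjusted p of 0.05, as did 0 (0%) of all 18625 probe sets. At an unadjusted p under 0.05 there were 3 of the 15 tested probe sets of these genes, against 8.02% of all. The members were chosen with this contrast known, so nothing is read from these shares.

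**Figure D1:**
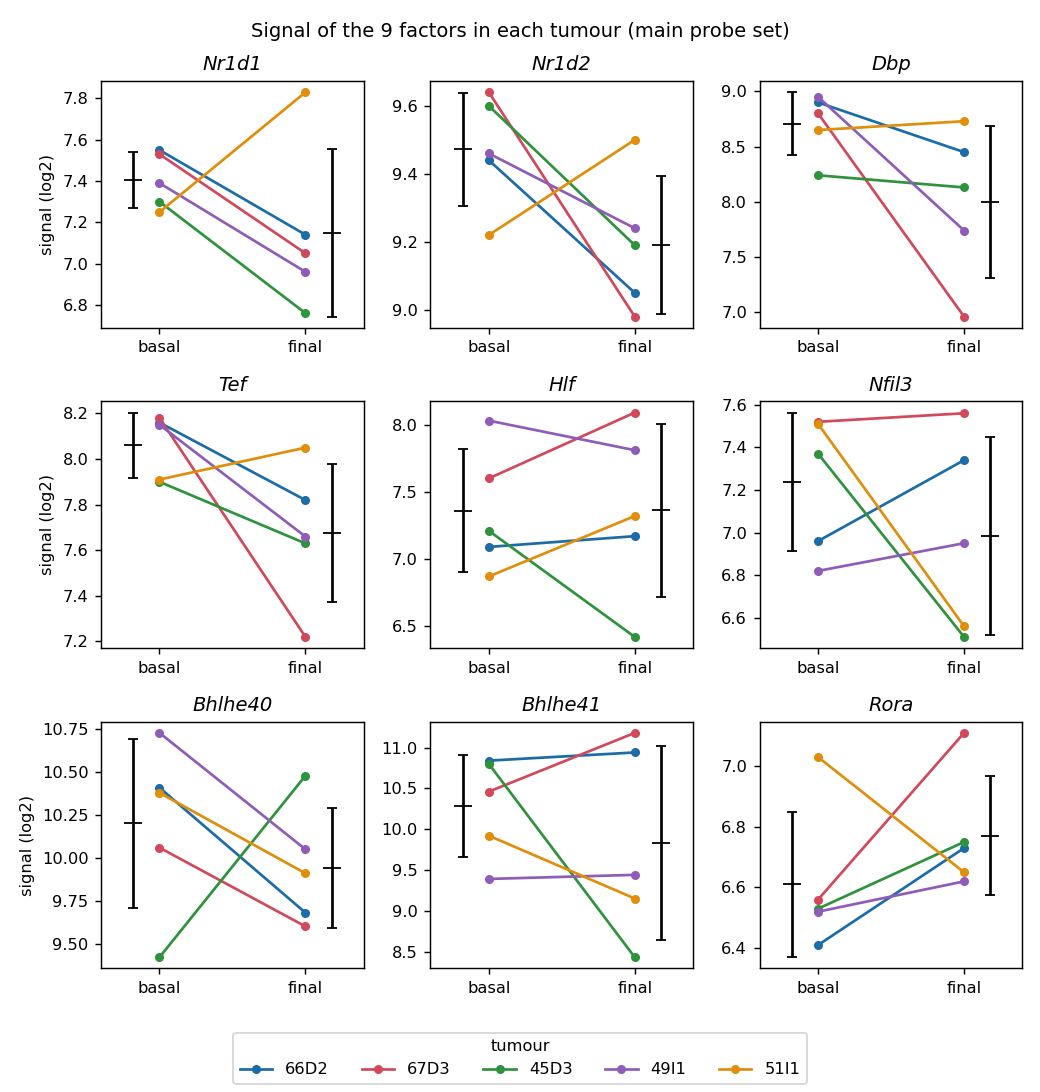
Signal of the 9 factors on the log2 scale (vertical axis, a separate range for each gene) in the basal and final sample of each of 5 tumours, joined by lines, for the main probe set; black bars are group means ± SD (n = 5). Nr1d1, Nr1d2, Dbp and Tef slope downward in 4 tumours and upward in 51I1, Rora slopes the other way in each tumour, and Bhlhe40 and Bhlhe41 move apart in 45D3.

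The REV-ERB genes shared a pattern across tumours. Nr1d1 (probe set 1370816_at) had basal log2 signals of 7.55 (66D2), 7.53 (67D3), 7.30 (45D3), 7.39 (49I1) and 7.25 (51I1). The final signals were 7.14, 7.05, 6.76, 6.96 and 7.83 in the same order. Thus 4 final samples lay below every biopsy, and the final sample of 51I1 lay above every biopsy. The mean difference was -0.26 (SE 0.18, n = 5), and without 51I1 it was -0.46. In the RefSeq annotation Nr1d1 overlaps Thra, the thyroid hormone receptor alpha gene, known to lie on the opposite strand. The brightest probe set of Thra differed by 0.38 and another, 1370691_a_at, by -0.45, with 5 of 5 tumours lower; the sources used here do not say where the Nr1d1 probes lie relative to the shared stretch.

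Nr1d2 was read by 3 tested probe sets. The brightest, 1390430_at, had basal signals of 9.44 (66D2), 9.64 (67D3), 9.60 (45D3), 9.46 (49I1) and 9.22 (51I1), and final signals of 9.05, 8.98, 9.19, 9.24 and 9.50. As in Nr1d1, the final signal was lower in 4 tumours and higher in 51I1. That tumour had the lowest biopsy and the highest final sample. The mean log2 difference was -0.28 (SE 0.15, n = 5), which is a final signal of 0.823 of the basal one. The difference was -0.42 without 51I1 and -0.19 without 67D3. The second probe set, 1370541_at, had the same sign in 5 of 5 tumours (mean difference -0.32, r = 0.94 with the first over the 10 arrays). The dimmest, 1370540_at, matched in 4 of 5 (-0.34, r = 0.56), its value in 45D3 being 0.41 higher in the final sample.

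Dbp, encoding the D-box binding PAR bZIP activator DBP, had the lowest mean difference of the 9 over all 5 tumours, though without 67D3 that of Bhlhe41 was lower (-0.75 against -0.42). Its basal signals were 8.90 (66D2), 8.80 (67D3), 8.24 (45D3), 8.95 (49I1) and 8.65 (51I1), and its final signals were 8.45, 6.96, 8.13, 7.74 and 8.73. The biopsies spanned 8.24 to 8.95, while final samples spanned 6.96 to 8.73, with 67D3 and 49I1 lowest. The mean log2 difference was -0.71 (SE 0.29, n = 5), a final signal of 0.613 of the basal one. It was -0.42 without 67D3, so that tumour moves the value by more than 1.5 times.

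Tef, encoding the PAR bZIP activator thyrotroph embryonic factor, followed Dbp closely. Its brightest probe set, 1390819_at, had basal signals of 8.16 (66D2), 8.18 (67D3), 7.90 (45D3), 8.15 (49I1) and 7.91 (51I1). The final signals were 7.82, 7.22, 7.63, 7.66 and 8.05, with 67D3 again the lowest and 51I1 the highest. The mean difference was -0.38 (SE 0.16, n = 5), and -0.24 without 67D3. Its dimmer probe sets differed by -0.33 (1369919_at) and -0.57 (1385374_at), with the sign of the main one in 4 and 3 of 5 tumours. In 45D3 both were higher in the final sample, by 0.41 and 0.45, where the main one was lower. In 51I1, where the main one was 0.13 higher, they differed by 0.07 and -0.59.

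Hlf, the gene of the third PAR bZIP activator, did not share that pattern. On probe set 1385585_at its basal signals were 7.09 (66D2), 7.60 (67D3), 7.21 (45D3), 8.03 (49I1) and 6.87 (51I1), and its final signals 7.17, 8.09, 6.42, 7.81 and 7.32. Tumours 67D3 and 49I1 were highest both before and after, in swapped order, and 45D3 was lowest only after. The mean difference was 0.00 (SE 0.20, n = 5), with 3 tumours higher and 2 lower. The next probe sets gave 0.09 and -0.09, correlating with the first at 0.98 and 0.93 over the 10 arrays. The remaining one, 1384811_at, lay below the dim cutoff, with means of 3.09 and 2.90.

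Nfil3, the D-box repressor, had basal signals of 6.96 (66D2), 7.52 (67D3), 7.37 (45D3), 6.82 (49I1) and 7.51 (51I1), and final signals of 7.34, 7.56, 6.51, 6.95 and 6.56. It was lower by 0.86 in 45D3 and by 0.95 in 51I1, and higher by 0.04 to 0.38 in the other 3 tumours. The mean difference of -0.25 (SE 0.23, n = 5) thus rests on 2 tumours, and was -0.08 without 51I1, -0.10 without 45D3 and -0.41 without 66D2. Nfil3 had the sign opposite to Dbp in 4 of 5 tumours, 45D3 being the exception where both were lower. This count was made after the values were seen, and it includes differences close to 0 (Nfil3 0.04 in 67D3, Dbp 0.08 in 51I1).

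The genes of DEC1 and DEC2, both repressors at E-boxes, had opposite signs in 4 of 5 tumours, a count made after the values were seen. In 66D2 and 49I1 that rests on Bhlhe41 differences close to 0 (0.09 and 0.06). Bhlhe40 had basal signals of 10.41 (66D2), 10.06 (67D3), 9.42 (45D3), 10.73 (49I1) and 10.38 (51I1), and final signals of 9.68, 9.60, 10.48, 10.05 and 9.91. The biopsy of 45D3 was the lowest of all 10 arrays, and its final sample was the highest of the 5. The mean log2 difference of -0.26 (SE 0.27, n = 5), a ratio of 0.836, was -0.59 without 45D3 and -0.14 without 66D2.

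Bhlhe41 had basal signals of 10.84 (66D2), 10.46 (67D3), 10.80 (45D3), 9.39 (49I1) and 9.92 (51I1), and final signals of 10.94, 11.18, 8.43, 9.44 and 9.15. In 45D3 it differed by -2.37, the farthest from 0 of any value for these 9 genes. The mean log2 difference was -0.45 (SE 0.42, n = 5), with 3 tumours higher and 2 lower, and 0.02 without 45D3. Bhlhe41 and Nfil3 had the same sign in 5 of 5 tumours, a count also made after the values were seen. It includes values close to 0, for Bhlhe41 in 66D2 (0.09) and 49I1 (0.06) and for Nfil3 in 67D3 (0.04) and 49I1 (0.13).

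From biopsy to final sample the hexokinase 3′ minus 5′ difference differed by -1.47 in 45D3 and -1.02 in 67D3, against -0.27 to 0.11 in the other tumours. With that difference as a covariate in the fit, Bhlhe40 differed by -0.77, Bhlhe41 by 0.07 and Nfil3 by -0.00. The same fit gave -0.13 for Nr1d1, -0.16 for Nr1d2, 0.07 for Rora, 0.18 for Hlf, -0.66 for Dbp and -0.30 for Tef. The part of RNA quality in these values was not tested beyond that fit.

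Rora was the factor that was higher in 4 of 5 tumours. Its basal signals were 6.41 (66D2), 6.56 (67D3), 6.53 (45D3), 6.52 (49I1) and 7.03 (51I1), and its final signals 6.73, 7.11, 6.75, 6.62 and 6.65. The biopsy of 51I1 stood above the other biopsies and the final sample of 67D3 above the other final samples. The mean difference was 0.16 (SE 0.14, n = 5), with 0.30 without 51I1 and 0.06 without 67D3. Its sign was opposite to that of Nr1d1, Nr1d2, Dbp and Tef in 5 of 5 tumours, a count made after the values were seen. A second Rora probe set, 1380478_at, lay below the dim cutoff and differed by -0.16.

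**Figure D2:**
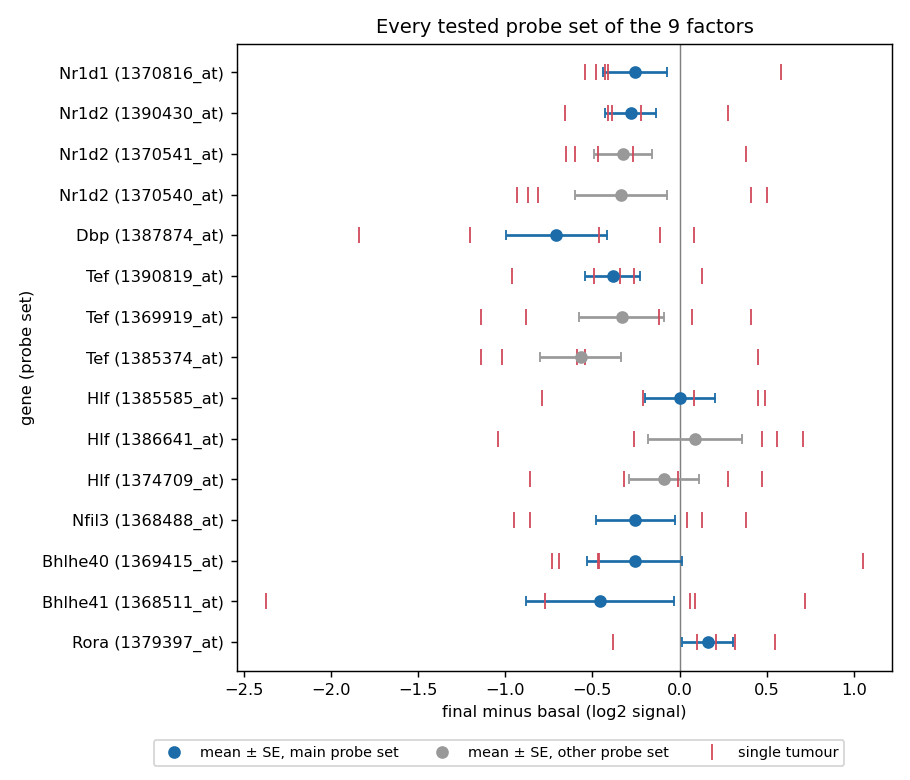
Final minus basal difference in log2 signal (horizontal axis) for the 15 tested probe sets of the 9 factors (vertical axis): circles are means ± SE from the paired fit (blue for the main probe set, grey for others) and red ticks are the 5 tumours. The 3 probe sets of Nr1d2 and the 3 of Tef all lie below 0 in the mean, those of Hlf lie around 0, and Rora lies above 0.

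Tumour 51I1 stood apart in the pattern shared by the REV-ERB genes, Dbp and Tef. Nr1d1, Nr1d2, Dbp and Tef, 4 of the 9, were lower in 66D2, 67D3, 45D3 and 49I1 and higher in 51I1, a pattern shown by 1.56% of all tested probe sets. The pattern was picked after the values were seen, and those 4 genes were chosen with this contrast known. In 51I1 the differences were 0.58 for Nr1d1, 0.28 for Nr1d2, 0.08 for Dbp and 0.13 for Tef, on the main probe sets; Tef 1385374_at went the other way there (-0.59). The spread between tumours was larger in final than in basal samples for 7 of the 9 genes, against 48.8% of all tested probe sets. For Nr1d1 the SD went from 0.14 to 0.41 and for Dbp from 0.29 to 0.69, while Bhlhe40 and Rora had the smaller SD in final samples.

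Markers of other cell types differed between the same tumours. The median difference of 9 skeletal muscle markers (Acta1, Ckm, Mb and others) was 4.37 (66D2), 6.58 (67D3), 0.22 (45D3), 2.45 (49I1) and 0.25 (51I1). Their list median ranged from 3.88 to 4.53 in biopsies and from 4.09 to 10.79 in final samples, and Ckm, Mb, Myh2, Myh4 and Tnnt3 were below the dim cutoff in all 5 biopsies. Dbp differed by -0.46, -1.84, -0.11, -1.20 and 0.08 in the same tumour order. With the muscle median as a covariate, Dbp differed by 0.08 (SE 0.27), Tef by 0.02 (SE 0.17) and Nr1d1 by 0.03 (SE 0.28). Nr1d2 differed by 0.01 (SE 0.20) and Bhlhe40 by 0.15 (SE 0.42). These values were above 0, but each was smaller than its SE, so no direction is read from them. In that fit Rora differed by -0.15 (SE 0.19) and Hlf by -0.26 (SE 0.32), each also nearer to 0 than its SE, so no direction is read. Nfil3 differed by -0.81 (SE 0.26) and Bhlhe41 by -1.56 (SE 0.44). The muscle median difference was above 0 in every tumour, so the fit cannot fully separate muscle from the final against basal contrast.

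Other marker lists also varied by tumour, among them 51I1, in which the REV-ERB genes were higher. The median difference of 9 adipocyte markers (Adipoq, Fabp4, Cfd and others) was 4.34 in 51I1, with 8 of 9 higher. It was 2.13 in 67D3, -1.84 in 45D3, 0.36 in 66D2 and 0.15 in 49I1. The list median ranged from 4.99 to 6.64 in biopsies and from 5.39 to 8.99 in final samples. The luminal epithelial median differed by -0.38 in 51I1, with 0 of 8 markers higher, and by -0.02 to 0.44 in the other tumours. In 51I1 the medians of endothelial, macrophage and T and NK cell markers differed by 1.58 (7 of 7 higher), 1.14 (6 of 6) and 1.37 (6 of 6), and that of fibroblast and collagen markers by 0.80. In 45D3, where Bhlhe40 and Bhlhe41 stood apart, these 4 medians differed by -1.18, -0.85, -0.93 and -1.22. The part in the values of the 9 factors was not tested beyond the muscle covariate.

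**Figure D3:**
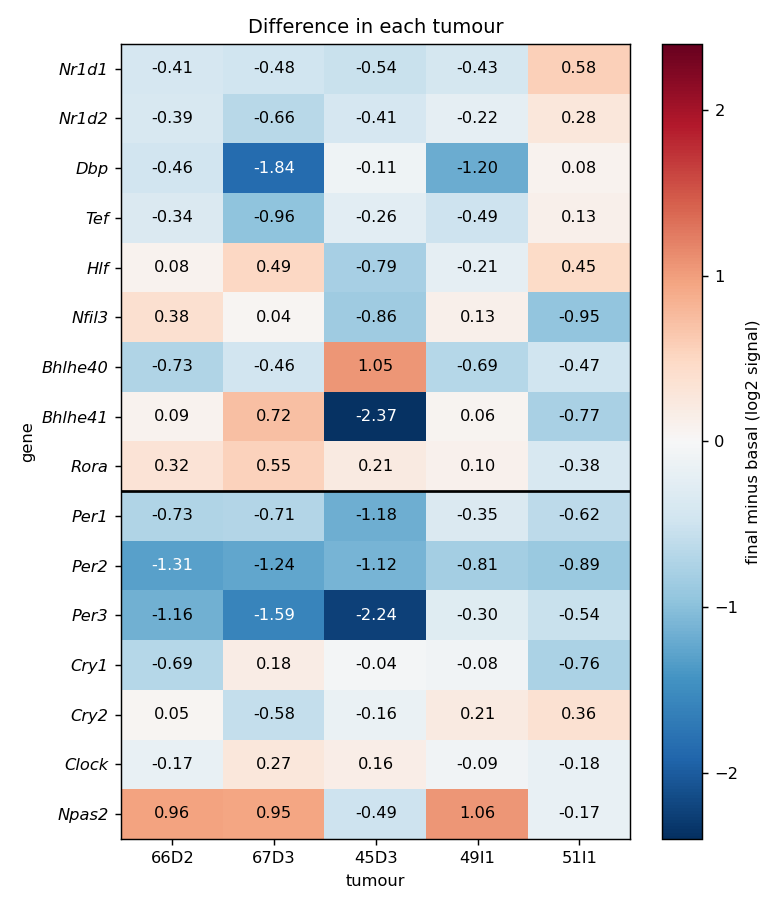
Final minus basal difference in log2 signal for each tumour (columns) and gene (rows), with the 9 factors above the line and 7 core clock genes below it; red is higher and blue lower in the final sample, and the value is printed in each cell. The 3 Period genes are below 0 in all 5 tumours, while Nr1d1, Nr1d2, Dbp and Tef are above 0 in 51I1.

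In the central loop, the Period genes, which encode its repressors, were lower in the final sample of all 5 tumours on their main probe sets. Of the core clock genes on a list, 10 had a probe set with 1 symbol and are counted here, and Arntl (Bmal1) was not analysed here. The list was chosen with earlier results of these data known, so nothing is read from its shares. Of these 10, 0 passed limma's adjusted p threshold, 3 (Per1, Per2 and Per3) were lower in all 5 tumours (4.75% of all tested probe sets) and 0 were higher in all 5, and the median difference was -0.18. Per1 went from 7.92 ± 0.33 (SD, n = 5) to 7.20 ± 0.20 (SD, n = 5), Per2 from 8.54 ± 0.30 (SD, n = 5) to 7.47 ± 0.28 (SD, n = 5), and Per3 from 7.18 ± 0.27 (SD, n = 5) to 6.01 ± 0.76 (SD, n = 5). The groups did not overlap for 2 of the 10, Per1 and Per2, against 1.07% of all with every final value lower. A dimmer Per2 probe set differed by -0.20. A second Per3 probe set, below the dim cutoff, differed by -0.21 and was 0.16 higher in the final sample of 45D3. With the hexokinase difference as a covariate, Per1 differed by -0.53 (SE 0.15), Per2 by -1.03 (SE 0.15) and Per3 by -0.62 (SE 0.24). In 51I1, where Nr1d1 was 0.58 higher, Per1, Per2 and Per3 differed by -0.62, -0.89 and -0.54. The difference between the Period genes and the output factors was not tested.

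Among the partners in activation, Npas2, a REV-ERB and ROR target gene, differed by 0.46 (SE 0.27, n = 5). It was higher by 0.95 to 1.06 in 66D2, 67D3 and 49I1 and lower by 0.49 in 45D3 and 0.17 in 51I1. With the skeletal muscle median as a covariate Npas2 differed by -0.22 (SE 0.28), so its direction depends on that setting. Clock differed by -0.00 (SE 0.11, n = 5). Of the genes of the CRY repressors, Cry1 differed by -0.28 and Cry2 by -0.02. Over the 10 arrays with group means subtracted, Npas2 had r = -0.80 with Dbp and -0.73 with Tef.

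Of 6 further genes of the accessory loops, 5 had a probe set and 3 of these were above the dim cutoff. Ncor1 and Hdac3, which encode the corepressor and the deacetylase that act with REV-ERB, differed by 0.02 (SE 0.09, n = 5) and 0.03 (SE 0.09, n = 5), and Cebpb by -0.01. Rorb, the paralogue of Rora known from neural tissue, lay below the dim cutoff, as did Hnf4a. Of 10 clock-controlled output genes, 8 were tested, 5 with a lower and 3 with a higher mean, and 0 passed. At an unadjusted limma p under 0.05 there was 1, against 8.02% of all tested probe sets. It is not among the 4 named next, which had the largest absolute differences. Nampt, the rate-limiting enzyme of NAD salvage, differed by -0.34 (SE 0.19, n = 5) and Pfkfb3, a regulator of glycolysis, by -0.33 (SE 0.22, n = 5), with -1.20 in 49I1 and -0.49 to 0.37 elsewhere. Cdkn1a, the cell cycle inhibitor p21, differed by 0.33 (SE 0.25, n = 5) and Tsc22d3, a glucocorticoid-induced gene, by -0.32 (SE 0.25, n = 5), or -0.04 without 45D3, where it was -1.44.

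The factors formed groups by their variation across arrays. Correlations here are Pearson r of log2 signal over the 10 arrays, which share tumours in pairs, and are given without a test. Dbp and Tef were each other's nearest gene among the 10839 tested, with r = 0.96, and r = 0.95 after each group's mean was subtracted. Next to Dbp were C3h9orf50 (0.94) and Lrrc40 (0.93), and next to Tef were Srsf1 (0.92) and Cyp4f17 (0.90). Hlf, though a gene of the same family, had r = -0.38 with Dbp and -0.17 with Tef once group means were subtracted. Its nearest genes were Loxl3 (0.94), Limch1 (0.92) and Sestd1 (0.92).

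Nr1d1 and Nr1d2 had r = 0.69 with each other, and 0.60 with group means subtracted. The genes nearest to Nr1d1 were Wdr1 (0.87), She (0.86) and Cep97 (0.84), and those nearest to Nr1d2 were Hnrnph1 (0.89), Ddx5 (0.86) and Ublcp1 (0.86). Nr1d2 and Rora had r = -0.75, and -0.71 with group means subtracted. For Nr1d1 and Rora these values were -0.43 and -0.32. Nearest to Rora were Dgcr6 (0.92), Hspb1 (0.91) and C19h1orf131 (0.91).

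Nfil3 and Bhlhe41 varied together (r = 0.80, and 0.78 with group means subtracted), and Bhlhe40 and Bhlhe41 varied oppositely (-0.59 and -0.73). Nearest to Nfil3 were Pdk4 (0.92), Lpin1 (0.90) and Grhl1 (0.90). Bhlhe41 lay nearest to Kifc2 (0.98), Frat2 (0.92) and Trir (0.91), and Bhlhe40 to Ctdspl2 (0.96), Smarcc1 (0.93) and Mterf3 (0.93). With 10 arrays and 10839 genes, values of this size occur for each of the 9 factors.

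**Figure D4:**
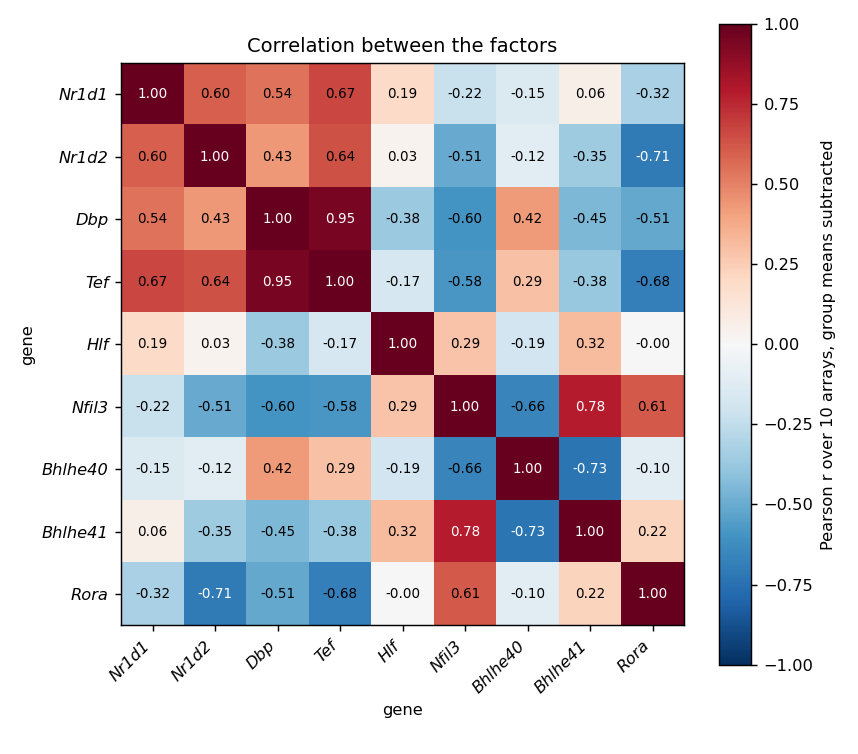
Pearson r of log2 signal between each pair of the 9 factors (both axes) over 10 arrays after subtracting the basal and final group means; red is positive and blue negative. Dbp and Tef stand at 0.95 and Nfil3 and Bhlhe41 at 0.78, while Bhlhe40 with Bhlhe41 is at -0.73 and Nr1d2 with Rora at -0.71.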

How the data were processed

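The 10 arrays (Affymetrix Rat Genome 230 v2.0, biotin-labelled total RNA) were normalised by the authors with Robust Multichip Average (RMA), per the labels and the submitters' processing notes, which name no version. The deposited values (2.44 to 14.34) were taken as log2 signals from that range, as no label states a scale. Of 31099 probe sets, 57 controls and the dimmest 40% by mean were left out, which kept 18625. The 2016 platform annotation gave 20826 probe sets 1 symbol, 436 several and 9780 none. RMA equalises distributions, so a change in total RNA per cell would not show.

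Differences were fitted with limma 3.58.1 (R 4.3.3, statmod 1.5.0), final minus basal, with the tumour as a block: both samples of a tumour carry the same identifier, and the design text states a paired test. As a check of the pairing, deviations from the group mean were correlated between a tumour's samples over probe sets; r averaged 0.30 over the 5 pairs (-0.16 in 45D3, 0.17 to 0.72 in the others). Tables were made with Python 3.11.15 and pandas 2.3.3. The members, gene lists and rules were chosen with earlier results of these data known. The named genes are the 9 members with every probe set, core clock genes, up to 4 genes of each other clock list (with Hnf4a and Rorb, below the dim cutoff, named for their absence), and the 3 genes most correlated with each member. The myoepithelial, endothelial, fibroblast, macrophage, T and NK cell and liver lists had median differences of -0.03, 0.44, 0.63, 0.09, 0.48 and -0.02 over their tested members. The number of arrays limits the precision.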

Additional observations from a re-analysis of the deposited data

Results flagged for a closer look

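Of 27 sets of 5 values examined for the 9 factors (basal, final and difference), 4 held a value far from the rest. In each, the gap to the nearest other exceeded Dixon's 95% limit of 0.71 of the range. About 1 in 20 independent sets of normal values would pass that limit. These sets share arrays, the members were chosen with this contrast known, and the limit was not applied to all tested probe sets. Nothing is therefore read from the count of 4. The Nr1d1 difference in 51I1 was 0.58, with the nearest of the other tumours at -0.41. The Bhlhe40 difference in 45D3 was 1.05, with the nearest other at -0.46. The Rora biopsy signal of 51I1 was 7.03, with the nearest other at 6.56. The Rora final signal of 67D3 was 7.11, with the nearest other at 6.75.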

How the results depend on the processing

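Over 131 alternative values for the 9 factors, 130 moved by less than the SD of the 5 differences and 116 kept their sign. The value that moved further was Tef with the skeletal muscle covariate (0.015). That SD is a wide limit, as Dbp at 0.08 with the same covariate, against -0.71, counted as not moved. Changing the block or the dim filter leaves the mean as it was, and leaving out 1 of 5 tumours cannot shift it that far. The count of 130 is therefore no measure of stability. The 15 changes of sign were in Hlf (7), Bhlhe41 (2, without 45D3 and with the hexokinase covariate) and 1 each in Nr1d1, Nr1d2, Dbp, Tef, Bhlhe40 and Rora, all 6 with the skeletal muscle covariate. Leaving out each tumour in turn gave -0.46 to -0.18 for Nr1d1, -0.42 to -0.19 for Nr1d2, -0.90 to -0.42 for Dbp, -0.51 to -0.24 for Tef and 0.06 to 0.30 for Rora. The count of probe sets past limma's adjusted threshold was 0 without the replicate block (1001 at an unadjusted p under 0.05, against 1494 with it) and 0 by the methods' t-test (1394). It was 2 with the hexokinase covariate, neither of them a probe set of the 9 factors, and 0 under the other alternatives run. The cause of these shifts was not tested. The 5 pairs of arrays, and signals below BioB for 4 factors, limit the precision.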
